A study of Mus musculus with 12 samples.

Results

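Sox11, Sox4, Neurod1, Neurod2, Neurod6 and Dcx are 6 genes of neuronal differentiation, followed here in hippocampal CA1 tissue of 2 mouse genotypes, wild-type and SUMO-KD. They were chosen by name, with earlier results of these arrays known, from among 12394 genes measured by a probe set that lists a single gene. All 15 probe sets whose only listed gene is one of the 6 were read, of 22690 on the array. The genes may have been chosen on any of the comparisons given here. The values of all 6 genes in every comparison are therefore given as a description. Whether a gene passed a threshold in the fit over all genes is also stated, but is not read as an independent test.

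The 4 groups were wild-type (WT) mice after sham surgery, wild-type mice after ischemia, SUMO-KD mice after sham surgery and SUMO-KD mice after ischemia, with 3 arrays in each. Ischemia was 10 minutes of global forebrain ischemia, and tissue was taken at 3 hours of reperfusion. SUMO-KD mice are transgenic, with a knockdown of SUMO, a small protein that cells attach to other proteins. Every sample pooled the CA1 tissue of 2 mice, so the spread between arrays is one between pools and not between single animals. The labels call the samples biological replicates and give no litter or surgery day, so the spread may be partly technical. The promoter that drives the transgene, the SUMO forms it targets, and the age, sex and strain of the mice are not given in the sources used here.

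Sox11 and Sox4 are closely related SoxC transcription factors that act in newborn neurons, where they activate genes of the immature neuronal state. Neurod1, Neurod2 and Neurod6 are basic helix-loop-helix (bHLH) factors that pair with E proteins, bind E-box sequences and drive neuronal differentiation. In the adult hippocampus Neurod1 is known from new granule neurons of the dentate gyrus, and Neurod2 and Neurod6 from mature pyramidal neurons. Dcx encodes doublecortin, a microtubule-associated protein that marks migrating neuroblasts and immature neurons. Sox11 is also known as a gene that injured neurons switch on.

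The promoter windows of Sox11 and Neurod1 are shown because these genes had the largest opposite differences among the 6. They are RefSeq sequences of build GRCm38.p6, from 250 bases before to 50 bases after the annotated start, read 5′ to 3′ on the gene's own strand. Capitals mark matches to the E-box letters CANNTG. The Sox11 window is chr12:27342669-27342968 on the minus strand, upstream of and overlapping the first bases of the gene at chr12:27334268-27342718. The Neurod1 window is chr2:79456587-79456886 on the minus strand, with the gene at chr2:79452637-79456636.
Sox11: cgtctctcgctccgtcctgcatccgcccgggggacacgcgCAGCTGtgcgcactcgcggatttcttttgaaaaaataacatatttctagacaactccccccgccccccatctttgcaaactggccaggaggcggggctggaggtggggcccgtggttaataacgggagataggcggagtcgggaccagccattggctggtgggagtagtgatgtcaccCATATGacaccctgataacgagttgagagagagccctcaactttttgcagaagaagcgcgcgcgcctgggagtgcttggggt
Neurod1: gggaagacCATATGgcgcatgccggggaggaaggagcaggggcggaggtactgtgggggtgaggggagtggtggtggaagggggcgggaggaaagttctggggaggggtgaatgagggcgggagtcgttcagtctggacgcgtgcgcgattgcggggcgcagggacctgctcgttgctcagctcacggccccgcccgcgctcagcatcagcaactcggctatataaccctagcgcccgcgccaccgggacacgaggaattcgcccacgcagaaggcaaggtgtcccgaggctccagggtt

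The Sox11 window held 2 E-boxes, CAGCTG and CATATG, and the Neurod1 window held 1, CATATG. Any E-box was found in 72.3% of 32851 windows of the same length, CAGCTG in 16.3% and CATATG in 3.91%, searched on both strands. CATATG was also found in the Neurod2 window and not in those of Neurod6, Sox4 and Dcx. CAGCTG was also found in the Sox4 window. CAGATG, in 17.2% of windows, was found in the Neurod2 window only. All these short forms are instances of CANNTG and overlap with it. The SOX core ACAAAG was found in 1 of the Dcx windows and in 18.7% of all windows. The SOX core ACAATG, the cyclic AMP response element TGACGTCA and the AP-1 motif TGANTCA had no match in the 7 windows of the 6 genes and matched 12.6%, 1.79% and 7.81% of all windows. The share of G and C was 58.7% for Sox11 and 66.7% for Neurod1, against a median of 52.7%. A match is a description of letters in a window and not a site of binding.

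Median intensity of the arrays was 141 to 162. The targeted family could be read from Sumo3, 1 of the SUMO genes. It was 2247 to 2467 in wild-type sham arrays and 1337 to 1689 in SUMO-KD sham arrays. After ischemia it was 3245 to 3518 in wild-type and 1879 to 1936 in SUMO-KD, so the genotypes did not overlap after either surgery. One array stood apart from the other ischemia arrays on ribosomal RNA controls. The 3′ control of 18S RNA was 5087 to 7569 in sham arrays and 2829 to 4127 in 5 of the ischemia arrays, but 6316 in SUMO-KD ischemia replicate 2. The main differences of the 6 genes that rest on SUMO-KD ischemia arrays are therefore also given without that array. Atf3, a stress-induced factor, had a mean of 1496 (SD 223, n = 3) over the SUMO-KD ischemia arrays, with that array included. Its mean was 44.0 (SD 2.89, n = 3) over the SUMO-KD sham arrays. In such bulk tissue, fewer cells of a type and less RNA per cell cannot be told apart.

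Sox11 was low in wild-type sham tissue and high in the other groups. Its intensity in the 3 wild-type sham arrays was 181, 230 and 209. After ischemia it was 845, 529 and 768 in wild-type mice. In SUMO-KD sham mice it was 667, 570 and 715, and in SUMO-KD mice after ischemia 414, 524 and 501. No 2 of these groups overlapped, except SUMO-KD sham with wild-type ischemia. In order of the means, wild-type sham came lowest at 207, then SUMO-KD ischemia at 480, SUMO-KD sham at 650 and wild-type ischemia at 714.

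**Figure D1:**
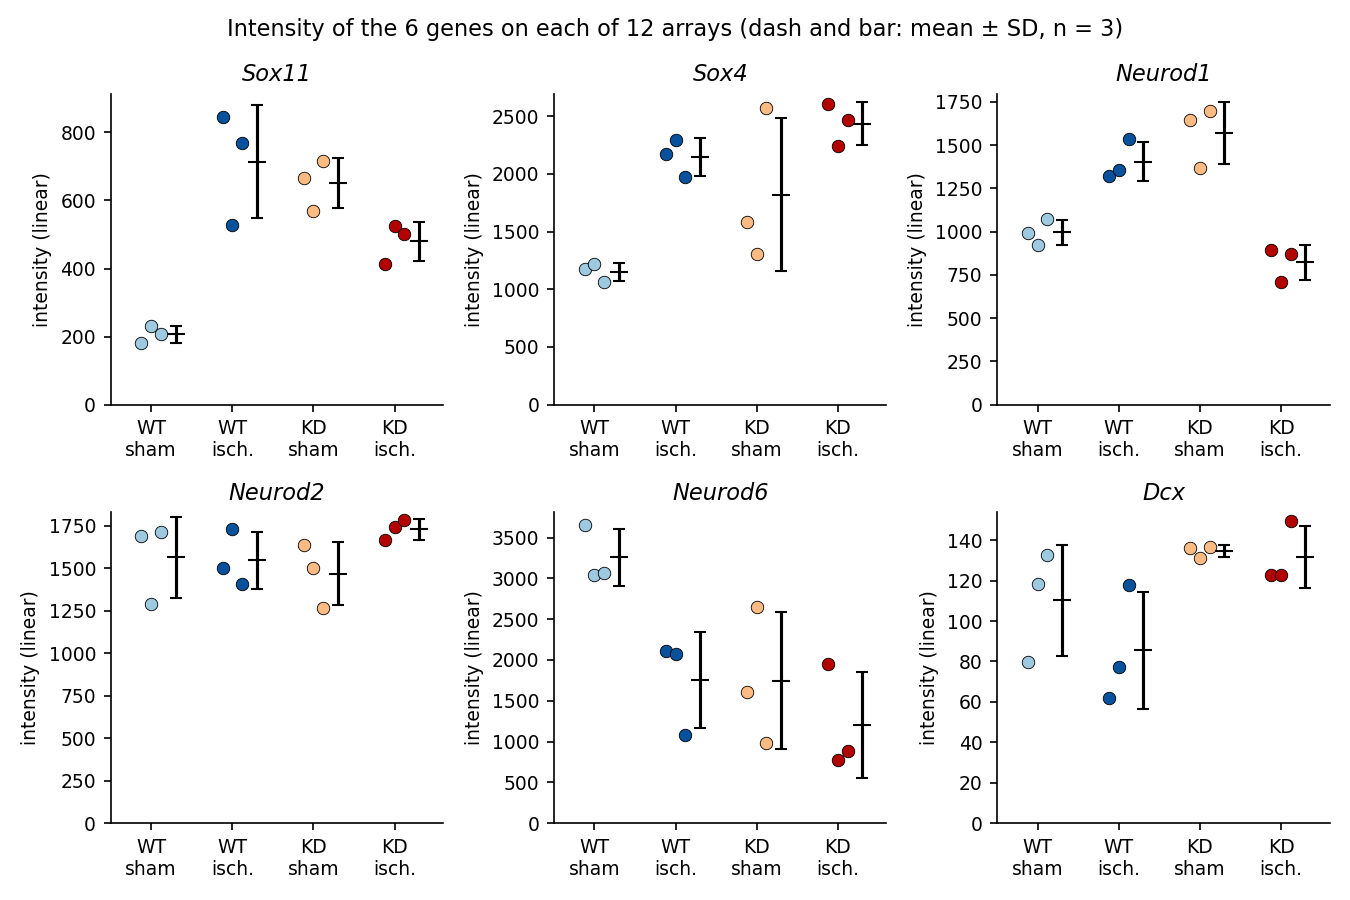
Intensity (linear axis from 0) of Sox11, Sox4, Neurod1, Neurod2, Neurod6 and Dcx on each of 12 arrays, in wild-type (WT) and SUMO-KD (KD) mice after sham surgery or ischemia (isch.). Points are arrays, and the dash and bar are the mean and SD over 3 arrays. Sox11 lies at 181 to 230 in wild-type sham arrays and at 414 or more in every other array. Neurod1, on the probe set used for it, is lowest in the SUMO-KD ischemia group.

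Differences between groups are given on the scale of log2(intensity + 32), from a limma fit over all genes and 12 arrays, with its standard error (SE). On that scale Sox11 was higher by 1.62 (SE 0.16) after ischemia in wild-type mice, a ratio of mean intensities of 3.45. In SUMO-KD mice it was lower after ischemia, with a difference of -0.42 (SE 0.16) and a ratio of 0.737. Without SUMO-KD ischemia replicate 2 that difference was -0.48. Between genotypes, Sox11 was higher in SUMO-KD than in wild-type sham mice by 1.51 (SE 0.16), a ratio of 3.15, and after ischemia the difference was -0.53 (SE 0.16), or -0.59 without SUMO-KD ischemia replicate 2. The wild-type ischemia difference and the sham genotype difference share the wild-type sham arrays, so the low values there enter both.

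The difference between the genotypes' ischemia responses, SUMO-KD minus wild-type, was -2.04 (SE 0.23) for Sox11, and -2.10 without SUMO-KD ischemia replicate 2. By absolute size this ranked 2 of 12394 genes. Omission of each array in turn moved it between -2.23 and -1.91. Sox11 was read from a single probe set, whose name marks it as one that can match several transcripts of a gene, so no second probe set shows the same pattern.

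Neurod1 was also higher after ischemia in wild-type mice and lower in SUMO-KD mice. In wild-type sham arrays it was 992, 925 and 1071, and after ischemia 1325, 1356 and 1534. In SUMO-KD sham arrays it was 1645, 1368 and 1697, and after ischemia 894, 708 and 870. On the probe set used for the gene, SUMO-KD mice after ischemia had the lowest values of all. No overlap was found there between the groups of any of the 4 comparisons. In order, the means were 824 in SUMO-KD ischemia, 996 in wild-type sham, 1405 in ischemic wild-type and 1570 in SUMO-KD sham arrays, and only the last pair overlapped. Intensities of different probe sets are not comparable per molecule, so Neurod1 and Sox11 are not ordered by them.

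After ischemia Neurod1 was higher by 0.48 (SE 0.12) in wild-type mice and lower in SUMO-KD mice, at -0.91 (SE 0.12), or -0.80 without SUMO-KD ischemia replicate 2. SUMO-KD sham mice were above wild-type sham mice by 0.64 (SE 0.12), and after ischemia the genotype difference was -0.75 (SE 0.12), or -0.65 without that array. The difference between the ischemia responses was -1.39 (SE 0.17), rank 12 of 12394, and -1.29 without SUMO-KD ischemia replicate 2. A second Neurod1 probe set gave smaller differences of the same sign. It was 879, 827 and 757 in wild-type sham and 855, 1182 and 1288 in wild-type ischemia arrays, and these groups overlapped. In SUMO-KD mice it was 1117, 1235 and 1179 after sham surgery and 727, 794 and 902 after ischemia, with no overlap. On this probe set the SUMO-KD ischemia arrays overlapped with those of both wild-type groups. The log2 differences of this second probe set were 0.40 after ischemia in wild-type mice and -0.53 in SUMO-KD mice (SE 0.14 each). Between genotypes they were 0.50 after sham surgery and -0.43 after ischemia (SE 0.14 each). Its difference between responses was -0.93 (SE 0.20). In a limma fit over all probe sets, its adjusted p was under 0.05 for ischemia in SUMO-KD mice only.

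Among all genes tested, 39 of 12394, or 0.315%, had ischemia differences of opposite sign in the genotypes with no overlap of arrays in either. Sox11 and Neurod1 were among them, and the other 4 genes were not. Since the genes were chosen with earlier results of these arrays known, nothing is read from their presence there.

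**Figure D2:**
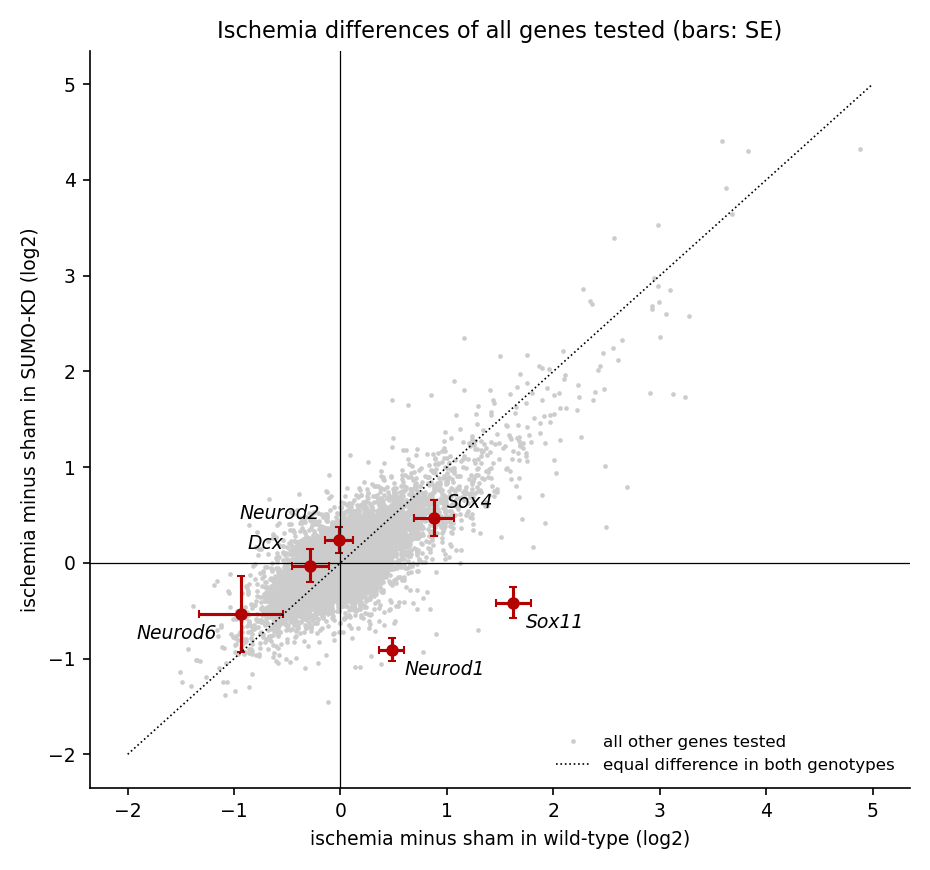
Ischemia minus sham on the log2(intensity + 32) scale in wild-type mice (horizontal) and SUMO-KD mice (vertical) for all 12394 genes, with the 6 genes named and their SE as bars. The dotted line marks equal differences. Sox11 (1.62 and -0.42) and Neurod1 (0.48 and -0.91) lie to the right of zero in wild-type and below zero in SUMO-KD, while Sox4 is above zero on both axes.

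Sox4, the SoxC relative of Sox11, was higher after ischemia in wild-type mice and did not share Sox11's lower level in SUMO-KD mice after ischemia. Its intensity was 1172, 1217 and 1064 in wild-type sham and 2176, 2289 and 1972 in wild-type ischemia arrays, with no overlap. SUMO-KD sham arrays were uneven at 1585, 1309 and 2568, and SUMO-KD ischemia arrays were 2602, 2240 and 2463. The high value of SUMO-KD sham replicate 3 brought the SUMO-KD groups into overlap. The log2 difference after ischemia was 0.88 (SE 0.19) in wild-type and 0.47 (SE 0.19) in SUMO-KD mice, and the latter was 0.53 without SUMO-KD ischemia replicate 2. Leaving out SUMO-KD sham replicate 3 raised the SUMO-KD difference to 0.74 and moved the difference between responses from -0.41 (SE 0.27) to -0.14, and leaving out SUMO-KD ischemia replicate 2 moved it to -0.35.

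SUMO-KD sham mice were above wild-type sham mice in Sox4 by 0.59 (SE 0.19), without overlap, and by 0.32 without SUMO-KD sham replicate 3. Of the other 5 Sox4 probe sets, the brightest pair had intensities of 184 to 783 and 206 to 651. Their wild-type differences after ischemia were 1.14 and 0.81, and their SUMO-KD differences 0.74 and 0.65. The remaining probe sets were dim, with means of 11.8 to 124.5. All 6 Sox4 probe sets had positive ischemia differences in both genotypes.

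Neurod6 was high in wild-type sham arrays, at 3658, 3046 and 3071, and lower and more scattered elsewhere. Wild-type ischemia arrays had 2115, 2069 and 1080. SUMO-KD sham arrays had 1609, 2643 and 984, and SUMO-KD ischemia arrays 1955, 777 and 886. The wild-type sham group stood above all 3 other groups without overlap, and those 3 groups overlapped with each other. The log2 difference was -0.94 (SE 0.39) for ischemia in wild-type mice and -0.99 (SE 0.39) for SUMO-KD against wild-type sham mice, which share the wild-type sham arrays. In SUMO-KD mice ischemia differed from sham by -0.53 (SE 0.39), and by -0.29 without SUMO-KD ischemia replicate 2.

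Neurod2 differed little between groups. Its intensity was 1689, 1289 and 1715 in wild-type sham and 1500, 1731 and 1405 in wild-type ischemia arrays. It was 1635, 1498 and 1268 in SUMO-KD sham and 1663, 1740 and 1783 in SUMO-KD ischemia arrays, the only pair of groups within a genotype or surgery that did not overlap. The log2 difference after ischemia was -0.01 (SE 0.13) in wild-type and 0.24 (SE 0.13) in SUMO-KD mice, or 0.23 without SUMO-KD ischemia replicate 2. Neurod2 had neither the pattern of Neurod1 nor that of Neurod6, although the 3 belong to a single family.

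Dcx was dim, with 80, 118 and 133 in wild-type sham and 62, 77 and 118 in ischemic wild-type arrays. SUMO-KD sham arrays had 136, 131 and 137, and SUMO-KD ischemia arrays 123, 123 and 149. The ischemia groups of the genotypes did not overlap, and the other compared groups did. Its ischemia difference was -0.28 (SE 0.17) in wild-type and -0.03 (SE 0.17) in SUMO-KD mice, or 0.01 without SUMO-KD ischemia replicate 2. After ischemia SUMO-KD was above wild-type by 0.50 (SE 0.17), or 0.54 without that array. The mean over all 4 Dcx probe sets gave 0.09 for that difference, so it rests on which probe set is read. Group means of the other 3 Dcx probe sets were 7.95 to 89.4.

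**Figure D3:**
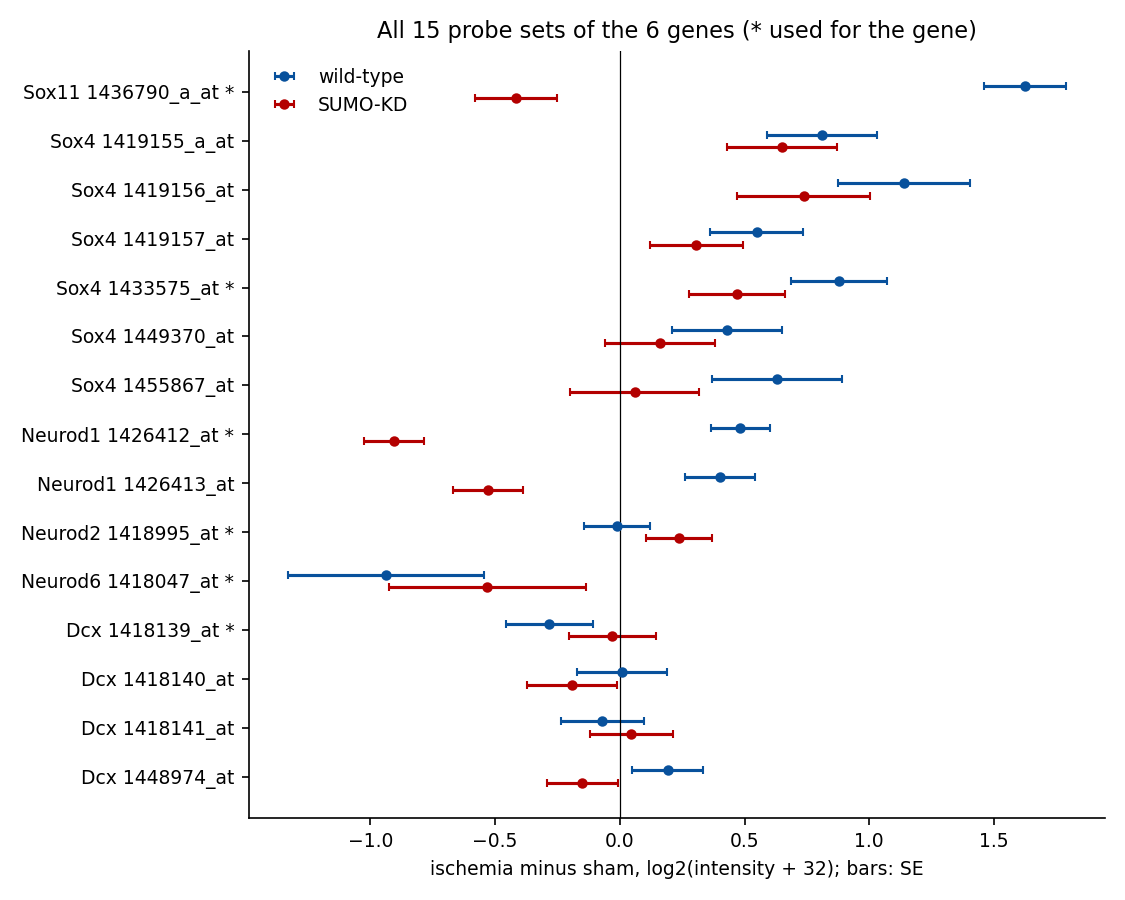
Ischemia minus sham on the log2(intensity + 32) scale for all 15 probe sets of the 6 genes, in wild-type (blue) and SUMO-KD (red) mice, with SE as bars. A star marks the probe set used for a gene. Both Neurod1 probe sets lie above zero in wild-type and below it in SUMO-KD mice, and all 6 Sox4 probe sets lie above zero in both.

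A gene was called at a Benjamini-Hochberg adjusted p of limma's two-sided test under 0.05 over all 12394 genes. For ischemia in wild-type mice 3 of the 6 genes were called higher (Sox11, Sox4 and Neurod1) and 0 lower, where 9.59% of all genes were called higher and 8.88% lower. In SUMO-KD mice 0 of the 6 were called higher and 1 lower (Neurod1), against 6.08% and 4.62%. Between sham groups 2 were called higher in SUMO-KD (Sox11 and Neurod1) and 0 lower, against 1.5% and 0.597%. After ischemia 0 were called higher and 1 lower (Neurod1), against 1% and 0.557%. For the difference between responses 0 were called higher and 2 lower (Sox11 and Neurod1), against 0% and 0.0161%. These 2 were the only genes called for the difference. With no genes called higher there, 768 genes of either sign had an unadjusted p under 0.05. Since the 6 genes were chosen with earlier results of these arrays known, nothing is read from these counts.

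Omission of single arrays changed some of these calls. The calls of Sox11 and Neurod1 for the difference between responses were both lost in 9 of 12 omissions, namely of any wild-type sham array, replicate 3 of wild-type ischemia, replicates 1 and 3 of SUMO-KD sham and any SUMO-KD ischemia array. Their differences then stayed within -2.11 to -1.94 for Sox11 and -1.45 to -1.29 for Neurod1. The wild-type call of Neurod1 was lost without wild-type sham replicate 2 (difference 0.43) or wild-type ischemia replicate 3 (0.42). Its sham genotype call was lost without wild-type sham replicate 1 or 2 or SUMO-KD sham replicate 1 or 3, with differences of 0.58 to 0.63. Sox4 was called in SUMO-KD mice without SUMO-KD sham replicate 3 (0.74), and Sox11 for the genotypes after ischemia without wild-type ischemia replicate 2 (-0.72).

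The genes whose profile lay nearest to Sox11's were Upp1, Arpp21, Irgm1, Camk2d and Kitl. Nearness was the root mean square difference over the 12 arrays between profiles centred on their means, among 7882 genes with a mean log2(intensity + 32) of at least 7. The distances were 0.32, 0.33, 0.35, 0.39 and 0.39, where Sox11's own spread about its mean was 0.67. Arpp21, which encodes a cyclic AMP regulated phosphoprotein of neurons, had mean intensities of 975 and 1878 in wild-type mice (sham, then ischemia) and 2191 and 2055 in SUMO-KD mice. Camk2d, a subunit of calcium and calmodulin dependent kinase, had the difference nearest to Sox11's after ischemia in SUMO-KD mice, at -0.41, where the other 4 had -0.10 to 0.18. The 5 differences between responses were -1.01 to -0.86, less negative than Sox11's. Without wild-type ischemia replicate 1, or SUMO-KD sham replicate 2 or 3, only 3 of these 5 genes were among the nearest.

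For Neurod1 the nearest were Gdf10, Tpm2, Plcb3, Ndp and Pkig, at distances of 0.24 to 0.26 where its own spread was 0.38. Gdf10, a secreted growth factor of the TGF-beta superfamily, had group means of 172, 191, 239 and 165 in the order wild-type sham and ischemia, then SUMO-KD sham and ischemia. These 5 lay closer to a flat profile than Neurod1 did, with differences between responses of -0.62 to -0.50. The nearest 5 held only 2 of these genes when replicate 2 or 3 of wild-type ischemia, 1 or 3 of SUMO-KD sham or SUMO-KD ischemia replicate 2 was left out. They held 3 without wild-type sham replicate 3 or wild-type ischemia replicate 1, and 3 with no offset.

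Lists of related genes are described next by their counts of called genes, beside the share of all genes called in the same direction, and nothing particular to a list is read from them. Proneural bHLH factors were listed together with E proteins, the partners of Neurod factors. Of 14 listed proneural bHLH factors and E proteins 11 were measured. In wild-type mice after ischemia the E protein Tcf12 rose by 0.39 (SE 0.11, adjusted p = 0.0278, limma) and the E protein Tcf4 fell by 0.34 (SE 0.09, adjusted p = 0.0238). Each is 9.09% of the list, near the 9.59% and 8.88% of all genes called higher and lower. The median log2 difference of the list was -0.12, against -0.04 over all genes. In SUMO-KD mice 0 were called by limma, with 1 at an unadjusted p under 0.05, and for the genotype comparisons 0 were called, with 1 after sham surgery and 2 after ischemia at an unadjusted p under 0.05. The call of Tcf12 was lost when any wild-type array but ischemia replicate 2 was left out, with adjusted p of 0.0585 to 0.0957. The call of Tcf4 was lost without wild-type sham replicate 1 or 3 or ischemia replicate 3, with adjusted p of 0.0682 to 0.0831. Averaging the probe sets of a gene ended both calls, centring the arrays on their medians or removing shared probe sets that of Tcf12, and a fit of the compared groups only that of Tcf4.

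Many Id, Hes and Hey proteins inhibit bHLH factors, by pairing with them or by repressing their targets, but not every listed gene need act so. Of 14 listed Id, Hes and Hey genes 13 were measured, and 4 rose and 1 fell after ischemia in each genotype. The rises are 30.8% of the list, against 9.59% of all genes in wild-type and 6.08% in SUMO-KD mice, and the fall is 7.69%, against 8.88% and 4.62%. Hey1, a Notch-induced repressor, rose by 0.77 (SE 0.11, adjusted p = 0.000732) in wild-type and 0.51 (SE 0.11, adjusted p = 0.0119) in SUMO-KD mice. Id3, which lacks a DNA-binding region, rose by 0.69 and 0.68 (SE 0.12 each). Hes6 also rose in both genotypes, Hes1 in wild-type and Id1 in SUMO-KD mice, 3 genes named after their values were seen. Hes5, a Notch target of progenitors, fell by 0.68 (SE 0.21, adjusted p = 0.0478) and by 0.90 (SE 0.21, adjusted p = 0.0199). The list's median was 0.35 in wild-type and 0.15 in SUMO-KD mice, against -0.04 and -0.02 over all genes.

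The 4 wild-type rises were 2 without wild-type sham replicate 1, and the 4 SUMO-KD rises were 2 with shared probe sets removed. The wild-type call of Hes5 was lost in 10 omissions, all but those of SUMO-KD ischemia replicates 1 and 2, with adjusted p of 0.0587 to 0.156. It was also lost with no offset, an offset of 16, shared probe sets removed or quantile normalization. In SUMO-KD mice the Hes5 call did not survive leaving out SUMO-KD sham replicate 1 or 3 or SUMO-KD ischemia replicate 2 or 3, with adjusted p of 0.0559 to 0.0694, nor with no offset or in a fit of the compared groups only. Between genotypes limma called 0 of the 13 after either surgery, with 4 and 3 at an unadjusted p under 0.05.

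The other Sox genes include factors of glia and vessels. Of 18 listed genes 16 were measured, 2 rose (12.5%) and 3 fell (18.8%) in wild-type mice, and 2 rose and 2 fell (12.5% each) in SUMO-KD mice. These stand against 9.59% and 8.88%, and against 6.08% and 4.62%, of all genes. The falls were 1 in each genotype with shared probe sets removed. Sox9, a factor of astrocytes and progenitors, rose by 1.05 (SE 0.11, adjusted p = 0.000119) and 0.62 (SE 0.11, adjusted p = 0.00532). Sox18 and Sox17, factors of endothelium, fell by 0.99 and 0.94 in wild-type and by 0.93 and 0.89 in SUMO-KD mice. Sox7, also of endothelium, rose by 0.50 and 0.77, and its wild-type call was lost without wild-type sham replicate 3 (adjusted p = 0.052). Sox10, the oligodendrocyte factor, fell in wild-type mice by 0.93 (SE 0.22), named after its value was seen. None of the 16 was called by limma between genotypes, with 2 at an unadjusted p under 0.05 after each surgery. The median was -0.10 in wild-type and 0.01 in SUMO-KD mice.

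Genes of the immature neuron's cytoskeleton and surface, among which Dcx acts, were measured for 27 of 28 listed. In wild-type mice 2 rose (7.41%) and 5 fell (18.5%) after ischemia, against 9.59% and 8.88% of all genes. In SUMO-KD mice 2 rose and 2 fell (7.41% each), against 6.08% and 4.62%. Stmn4, a stathmin that binds tubulin, rose by 0.88 and 0.94 (SE 0.12 each), and Dpysl3, a growth cone protein, by 0.45 and 0.50 (SE 0.10 each). Stmn3 fell by 0.64 and 0.59, and St8sia4, which makes polysialic acid on the adhesion molecule NCAM, by 0.62 and 0.56. The SUMO-KD call of St8sia4 was lost with the probe sets of a gene averaged. The medians were -0.03 and -0.05. With averaged probe sets 4 rose in each genotype and 1 fell in SUMO-KD mice. The wild-type falls were 8 with an offset of 64, dim genes removed or a trend, and 3 with shared probe sets removed, where 1 fell in SUMO-KD mice.

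Between genotypes Gap43, a growth cone protein, and Marcksl1, an actin regulator, were higher in SUMO-KD mice. Between sham groups these were 2 of 27 (7.41%), against 1.5% of all genes. Gap43 had mean intensities of 629.7 ± 74.6 in wild-type sham and 1145 ± 53.9 in SUMO-KD sham arrays (SD, n = 3), a difference of 0.84 (SE 0.11), with adjusted p = 0.00195 in limma. After ischemia its difference was 1.02 (SE 0.11) with adjusted p = 0.000998 in limma. Marcksl1 differed by 1.20 (SE 0.14) between sham groups and by 0.69 (SE 0.14) after ischemia. Stmn1 (0.52) and the adhesion molecule L1cam (0.49), named after their values were seen, were also higher in SUMO-KD mice after ischemia, which made 4 of 27 (14.8%, against 1% of all genes), and 10 of 27 at an unadjusted p under 0.05. These 4 became 2 without wild-type sham replicate 1 or SUMO-KD sham replicate 3, and 1 without wild-type ischemia replicate 1 or SUMO-KD ischemia replicate 1 or 3. They were also 2 with no offset, an offset of 16, averaged probe sets or shared probe sets removed, and 1 in a fit of the compared groups only. Between sham groups the 2 were 1 with shared probe sets removed. The call of Marcksl1 after ischemia was lost in 7 omissions, those of wild-type sham replicate 1, wild-type ischemia replicates 1 and 2, SUMO-KD sham replicate 3 and every SUMO-KD ischemia array, with adjusted p of 0.0514 to 0.141. No offset, an offset of 16, averaged probe sets and a fit of the compared groups only ended it too. Gap43 was called after both surgeries in every omission.

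Forebrain neuron transcription factors were measured for 34 of 39 listed. In wild-type mice 8 rose (23.5%) and 3 fell (8.82%), against 9.59% and 8.88% of all genes. In SUMO-KD mice 5 rose (14.7%) and 0 fell, against 6.08% and 4.62%, with 9 at an unadjusted p under 0.05 in limma. Rest, the repressor of neuronal genes, rose by 1.09 (SE 0.16, adjusted p = 0.00075) and 0.67 (SE 0.16, adjusted p = 0.0181). Prox1, a factor of dentate granule neurons, rose in wild-type mice by 1.03 (SE 0.20, adjusted p = 0.00473), with 0.20 (SE 0.20, adjusted p = 0.62) in SUMO-KD mice, and limma's test of that difference had adjusted p = 0.719. Bcl11a fell in wild-type mice by 0.96 (SE 0.19), with -0.58 (adjusted p = 0.073) in SUMO-KD mice, and Pou3f1 fell by 0.80 (SE 0.25), with -0.17 in SUMO-KD mice. The medians were -0.03 and -0.11.

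Counts of this list moved with single arrays. The 8 wild-type rises were 3 to 5 without any 1 of the 6 wild-type arrays, and 4 with no offset, shared probe sets removed or median centring, and 3 in a fit of the compared groups only. The 3 wild-type falls were 1 without wild-type sham replicate 1 or 3, wild-type ischemia replicate 1 or 3 or SUMO-KD ischemia replicate 3, and 1 in a fit of the compared groups only. The 5 SUMO-KD rises were 2 or 3 without any SUMO-KD sham array or SUMO-KD ischemia replicate 2 or 3, and 3 with shared probe sets removed. The call of Pou3f1 was lost in 9 omissions, all but wild-type ischemia replicate 2 and SUMO-KD sham replicates 1 and 2, with adjusted p of 0.0578 to 0.165. It was also lost with no offset, an offset of 16, averaged probe sets, the replicate block and a fit of the compared groups only. The SUMO-KD call of Rest did not hold without SUMO-KD sham replicate 1 or 3 or SUMO-KD ischemia replicate 2, with adjusted p of 0.0559 to 0.0789, or with averaged probe sets. Between genotypes limma called 0 of the 34, with 5 at an unadjusted p under 0.05 after each surgery.

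Progenitor and proliferation genes were measured for 22 of 23 listed. In wild-type mice 4 rose (18.2%) and 2 fell (9.09%), against 9.59% and 8.88% of all genes, and in SUMO-KD mice 3 rose (13.6%) and 1 fell (4.55%), against 6.08% and 4.62%. The 2 wild-type falls were 1 with shared probe sets removed. Vim, an intermediate filament of progenitors and reactive glia, rose by 1.21 and 1.22 (SE 0.24 each), and Ccnd2, a cyclin of dividing cells, by 1.11 and 0.80 (SE 0.18 each). The SUMO-KD call of Ccnd2 was lost without SUMO-KD ischemia replicate 2 (adjusted p = 0.0585) or in a fit of the compared groups only. Prom1 fell by 0.54 and Pcna, the replication clamp, by 0.47 in wild-type mice, with -0.33 and -0.13 in SUMO-KD mice. Medians were -0.03 and 0.05. Notch1 fell in SUMO-KD mice by 0.38, a call lost without SUMO-KD sham replicate 1 or 3 or SUMO-KD ischemia replicate 1 or 2, with averaged probe sets or in a fit of the compared groups only.

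Between genotypes Hopx was higher by 0.38 (SE 0.09, adjusted p = 0.0492) in SUMO-KD sham mice, a call lost in 10 omissions, all but those of wild-type ischemia replicates 1 and 3, with adjusted p of 0.061 to 0.188. It was also lost with no offset, an offset of 16, averaged probe sets, quantile normalization, median centring and a fit of the compared groups only, and removal of shared probe sets left no Hopx call. Hopx is 1 of 22 genes (4.55%), against 1.5% of all genes. Notch1 was lower in SUMO-KD mice after ischemia, at -0.59 (SE 0.10, adjusted p = 0.0145), a call lost without SUMO-KD ischemia replicate 1 (adjusted p = 0.0565) or 2 (0.0504), with averaged probe sets or in a fit of the compared groups only. It too is 4.55% of the list, against 0.557% of all genes called lower.

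Axon injury genes, a class to which Sox11 is often counted, were also read. All 19 listed were measured, 12 rose (63.2%, against 9.59% and 6.08% of all genes) and 0 fell (against 8.88% and 4.62%) in each genotype, with 13 and 12 at an unadjusted p under 0.05 in limma. Atf3, a stress-induced factor, rose by 4.88 and 4.32 (SE 0.18 each), and Tnfrsf12a, a receptor, by 3.10 and 2.85 (SE 0.16 each). The medians were 0.75 and 0.80, against -0.04 and -0.02 over all genes. Ecel1, a protease of injured neurons, was higher in SUMO-KD mice by 1.09 (SE 0.21, adjusted p = 0.023) between sham groups and 1.15 (SE 0.21, adjusted p = 0.0222) after ischemia, at low mean intensities of 44.6 to 158.6.

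The sham call of Ecel1 was lost without wild-type sham replicate 1 or 3 or SUMO-KD sham replicate 1 or 2, with adjusted p of 0.0578 to 0.115. Its call after ischemia was lost without wild-type ischemia replicate 1 or SUMO-KD ischemia replicate 1 or 3, with adjusted p of 0.06 to 0.0863, or in a fit of the compared groups only. With no offset both calls were lost. Gap43 is also on this list, which made 2 of 19 (10.5%) higher between sham groups and 2 after ischemia, against 1.5% and 1% of all genes. Gadd45a was lower in SUMO-KD mice after ischemia by a difference of -0.54, a call lost in 7 omissions, all but those of wild-type sham replicates 1 and 2, SUMO-KD sham replicates 2 and 3 and SUMO-KD ischemia replicate 2. It was also lost with no offset, an offset of 16, the replicate block and a fit of the compared groups only. For the difference between ischemia responses, limma called 0 genes of each of the 7 lists, with 0 to 3 of a list at an unadjusted p under 0.05.

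Markers of CA1 pyramidal neurons and of dentate granule neurons differed between some of these groups. Of 7 markers of CA1 pyramidal neurons 4 were measured (Wfs1, Pou3f1, Ndst4 and Lefty1), and all were above an intensity of 32 in some arrays of each group. Their summed intensity was 4563 to 6486 in sham and 2381 to 3563 in ischemia arrays of wild-type mice, and 2604 to 3307 and 2165 to 2906 in those of SUMO-KD mice. Wild-type sham stood above the other groups without overlap, as for Neurod6. Wfs1 was lower in SUMO-KD sham than wild-type sham mice, at -0.87 (SE 0.16, adjusted p = 0.0144, limma). It was the only CA1 marker called there, but 3 of the 4 had an unadjusted p under 0.05 in limma. The list median was -0.87, against -0.01 over all genes. Means in wild-type sham, then SUMO-KD sham arrays were 1992 and 1092 for Pou3f1, 1060 and 492 for Lefty1 and 43.3 and 47.8 for Ndst4. Npnt, 1 of 5 measured markers of dentate granule neurons out of 8, was higher in SUMO-KD sham mice by 0.91 (SE 0.19, adjusted p = 0.036). In that comparison 2 of the 5 had an unadjusted p under 0.05 in limma, with a list median of 0.45. The Wfs1 call was lost without wild-type sham replicate 1 (adjusted p = 0.065) or SUMO-KD sham replicate 3 (0.0749). The Npnt call was lost in 8 omissions, of replicates 1 and 2 of wild-type sham, 1 of wild-type ischemia, all 3 of SUMO-KD sham, and 1 and 3 of SUMO-KD ischemia, with adjusted p of 0.0519 to 0.153. The summed granule markers were 2650 to 4451, 2325 to 2433, 3874 to 5312 and 2309 to 2865 in the same order of groups. They were highest in SUMO-KD sham arrays, with overlap between the sham groups. The mean of Neurod1 was also highest there. In wild-type mice after ischemia Neurod1 was higher and the summed granule markers were lower. Mean intensities in wild-type sham, then ischemia arrays were 1246 and 421 for Lct and 1485 and 1218 for Dsp. They were 204 and 152 for Tdo2, 465 and 464 for Npnt and 50.1 and 138 for Prox1, so the sum rests mostly on its brightest markers. The part of CA1 and granule neuron markers in the results for the 6 genes was not tested.

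Several markers were also called with ischemia, and their part in the results for the 6 genes was not tested. Of the 4 CA1 markers, Wfs1 (-0.60, SE 0.16), Pou3f1 (-0.80, SE 0.25) and Lefty1 (-1.04, SE 0.27) fell in wild-type mice, and limma called 0 in SUMO-KD mice, with 0 at an unadjusted p under 0.05. The Wfs1 call was lost without wild-type sham replicate 1 or wild-type ischemia replicate 3 (adjusted p of 0.0824 and 0.0777), and that of Lefty1 without these or wild-type sham replicate 2 (0.0503 to 0.072). Among the 5 granule neuron markers Prox1 rose in wild-type mice, as given above, and Lct fell in both genotypes (-1.49 and -1.25). Unadjusted p was under 0.05 in limma for 2 of the 5 in wild-type and 4 in SUMO-KD mice, with list medians of -0.22 and -0.65. For the difference between responses it was so for 2, with a median of -0.51. In SUMO-KD sham, then ischemia arrays, means were 1982 and 1173 for Dsp, 396 and 241 for Tdo2 and 878 and 575 for Npnt. They were 1220 and 492 for Lct and 73.0 and 89.0 for Prox1. The interneuron markers Sst (-0.40), Pvalb (-0.37) and Vip (-0.62) fell in wild-type mice, with calls lost in 9, 5 and 8 omissions at adjusted p of 0.0525 to 0.175, and limma called 0 in SUMO-KD mice, with 0 at an unadjusted p under 0.05.

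Glial and vascular markers were called in both directions. Gfap, a filament of astrocytes, rose in wild-type mice by 0.77 (SE 0.13). Pdgfra, a receptor of oligodendrocyte progenitors, fell in both genotypes (-1.06 and -1.24), and Cspg4 fell by 0.45 in SUMO-KD mice, a call lost in 5 omissions (adjusted p of 0.0663 to 0.0869). The microglial genes P2ry12 (-1.35 in wild-type, -1.02 in SUMO-KD) and Tmem119 (-0.90 and -0.95) fell in both genotypes. Csf1r fell in wild-type mice (-0.38) and Cx3cr1 in SUMO-KD mice (-0.54), the latter a call lost in 4 omissions (adjusted p of 0.0596 to 0.102). Of endothelial genes Slco1a4 fell (-1.51 and -1.14) and Cdh5 rose (0.91 and 0.84) in wild-type and SUMO-KD mice. With ischemia limma called 0 markers of CA3 pyramidal neurons, neuroblasts, oligodendrocytes and choroid plexus in either genotype, with 1 CA3 marker at an unadjusted p under 0.05 in wild-type mice and 0 of the others. For the difference between ischemia responses 0 markers of all 11 lists were called by limma, with 0 to 3 of a list at an unadjusted p under 0.05.

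**Figure D4:**
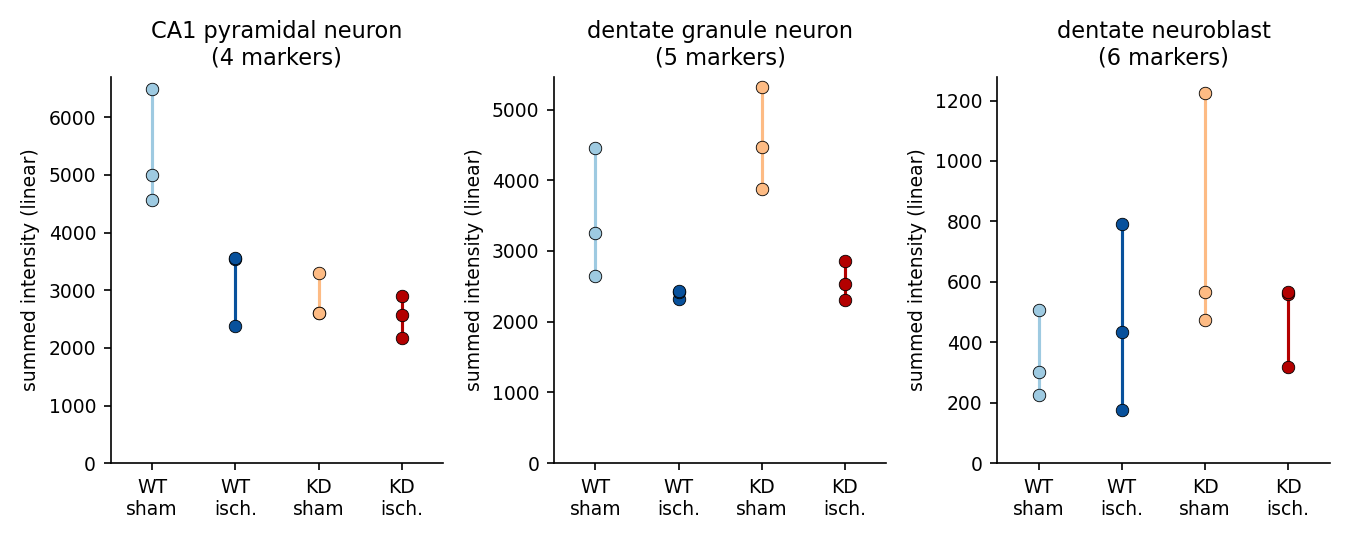
Summed intensity (linear axes from 0) of markers of CA1 pyramidal neurons, dentate granule neurons and dentate neuroblasts in wild-type (WT) and SUMO-KD (KD) arrays after sham surgery or ischemia (isch.). Points joined by a line are the lowest, median and highest of 3 arrays. CA1 markers are highest in wild-type sham arrays, at 4563 to 6486.

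Neuroblast markers, 6 measured of 8, were dim. Their sum was 225 to 507 after sham surgery and 177 to 792 after ischemia in wild-type mice, and 473 to 1226 and 317 to 567 in SUMO-KD mice. Igfbpl1 and Mki67 were below 32 on all 12 arrays. No neuroblast marker was called by limma between any groups, with 1 at an unadjusted p under 0.05 for each genotype comparison. Of the 8 remaining marker lists, astrocytes had Aqp4 (0.52) and Gfap (0.59) higher and interneurons had Dlx1 (-0.58) lower in SUMO-KD sham mice. Each of these calls was lost without wild-type sham replicate 1 or 2 or SUMO-KD sham replicate 2 or 3, with adjusted p of 0.0541 to 0.161. The Dlx1 call was also lost without wild-type sham replicate 3, and that of Gfap without replicate 1 of wild-type ischemia, replicate 1 of SUMO-KD sham or any SUMO-KD ischemia array. Between sham groups, limma called 0 markers of CA3 pyramidal neurons, oligodendrocytes, their progenitors, microglia, endothelium and choroid plexus, with 0 to 2 of a list at an unadjusted p under 0.05. Limma called 0 markers of all 11 lists between the genotypes after ischemia, with 0 to 2 of a list at an unadjusted p under 0.05.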

How the data were processed

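Total RNA of 12 CA1 samples was measured on Affymetrix arrays. The table deposited by the authors holds a linear intensity for each probe set on each array. Partek 6.6 and RMA are listed, with no role, per the submitters' processing notes; the values are not on RMA's log2 scale, and each array's mean after removing 2% of values at each end was 500.2. The sources used here do not say how they were made. The labels name no batch. Precision is limited by having 3 arrays a group.

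Genes were named through the platform annotation (20393 probe sets with 1 symbol, 691 with several, 1606 with none; 20364 matched by Entrez identifier, 0 symbols updated), and the probe set with the highest mean log2 value stood for a gene. Group means of log2(intensity + 32) were fitted over all 12 arrays with limma 3.58.1 in R 4.3.3. Fold changes on this scale understate the change of dim genes. Calls used adjusted p under 0.05, and no filter on dim genes was applied, so all 6 genes were fitted. The script was tested on simulated data.

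The members and lists were chosen with earlier results of these data known. Named were all 6 genes, of each list the 2 called genes with the largest change in each direction in wild-type ischemia, up to 2 called genes per list between genotypes, and the 5 nearest profiles of Sox11 and Neurod1. The 7 gene lists and 11 marker lists came from textbook knowledge. Comparisons within a surgery or genotype share arrays. Same-numbered samples deviated together with correlations of -0.17 to 0.28, not all above 0.1, so the numbers were not taken as pairs. Alternatives were other offsets, averaging the probe sets of a gene, removal of shared probe sets or dim genes, quantile or median scaling, a replicate block, fits of compared groups only, trend and robust settings, array weights and omission of each array. Promoter windows came from RefSeq.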

Additional observations from a re-analysis of the deposited data

Results flagged for a closer look

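Sox11 stood out because every wild-type ischemia array lay above every wild-type sham array while every SUMO-KD ischemia array lay below every SUMO-KD sham array, with a difference between the responses of -2.04 on the log2(intensity + 32) scale. Neurod1 stood out in the same way on the probe set used for it, with a difference of -1.39. On its second probe set the wild-type groups overlapped, and the difference was -0.93. Both genes may have been chosen with this difference in view, so it was not tested independently here. Groups of 3 arrays are too small for a search for single outlying arrays.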

How the results depend on the processing

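No value of the 6 genes changed sign in a way that reversed a call. Under the alternatives 9 of their values moved by more than the spread between replicates and 700 did not. Many of the 700 could not move. A difference between 2 groups stays the same when an array of another group is omitted. Settings that alter only the estimate of spread or the set of genes leave it unchanged too. Nothing is therefore read from that count. With a gene's probe sets averaged, Neurod1 differed by -0.72 after ischemia in SUMO-KD mice and by -1.16 between responses. Genes called for ischemia in SUMO-KD mice ranged from 762 to 1405 over omissions of an array (1327 in the main setting). For SUMO-KD against wild-type sham mice the 260 genes called became 156 with no offset, 130 in a fit of the compared groups only, 457 with array weights and 112 to 271 over omissions. After ischemia the 193 became 95, 48, 331 and 60 to 210. For the difference between responses the 2 became 0 with no offset, 1 without shared probe sets, 1 with the replicate block and 0 to 5 over omissions. Of the 6 genes, those called in SUMO-KD mice after ischemia numbered 1 to 2 over omissions; between sham groups 1 without shared probe sets, 1 in a fit of the compared groups only and 1 to 2 over omissions; after ischemia 0 in a fit of the compared groups only and 1 to 2 over omissions; for the difference between responses 0 with no offset, 1 without shared probe sets, 1 with the replicate block and 0 to 2 over omissions. Removing shared probe sets removes Sox11, whose only probe set is of that kind; for the other settings the cause was not tested. Under the replicate block Sox11 had an adjusted p of 0.0615 for the difference between responses. Median centring made the called genes in wild-type ischemia 986 higher and 1426 lower (40.9% higher) against 1188 and 1101 (51.9%). The replicate block also ended the calls of Pou3f1 in wild-type mice and of Gadd45a between genotypes after ischemia. Signal over background limits dim genes such as Dcx, Ecel1 and Hes5.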
